A study of Mus musculus with 18 samples.

Results

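The enzymes described here make or use glutathione, attach glutathione, glucuronic acid or sulfate to other molecules, or remove peroxides. They were chosen by gene symbol alone: the glutathione S-transferase families Gsta, Gstk, Gstm, Gsto, Gstp, Gstt, Gstz and Mgst, the Ugt, Sult, Fmo, Ephx, Gpx, Prdx and Txnrd families, and Gclc, Gclm, Gss, Gsr, Nqo1 and Cat. The annotation gave 92 such genes with 153 probes, of 19057 genes with 34885 probes on the array. Of the 92 genes, 50 were detected, meaning that a probe had a detection p-value under 0.01 on at least 3 of the 18 arrays, and these 50 were among the 10375 genes tested. Gsr, the glutathione reductase, was not analysed here.

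RNA of whole adrenal glands from C57BL/6N mice aged 2 months was measured on Illumina bead arrays. There were 6 groups of 3 arrays: castrated male Ephb6 knockout, castrated male wild type, female knockout, female wild type, intact male knockout and intact male wild type. Ephb6 is a receptor of the Eph family. The labels do not say how the knockout allele was made, or when castration was done, or whether intact males had a sham operation. Nor do they say that a group's numbered samples came from different mice, so the p-values speak only of variation among these arrays, part or all of which may be technical.

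Glutathione is a small thiol that donates electrons to glutathione peroxidases and is joined by the glutathione S-transferases to reactive or oily molecules. Microsomal epoxide hydrolase, the flavin monooxygenases, the UDP-glucuronosyltransferases and the sulfotransferases act on drugs, steroids and lipids in the same detoxifying chemistry, best known from the liver. The adrenal cortex makes steroids with electron-leaking cytochromes P450 in mitochondria and endoplasmic reticulum, and peroxide removal by glutathione peroxidases, peroxiredoxins, thioredoxin reductases and catalase is a known need of that tissue. The inner cortex of mice also holds the X-zone, a layer of fetal origin that is kept in virgin females, lost in males at puberty and known to reappear after castration.

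Values are log2 intensities after background correction and quantile normalization, and a difference is the first group minus the second on that scale, with the standard error (SE) of a limma fit to all 18 arrays. A gene passed, and is said to have risen or fallen, at an adjusted p under 0.05 over all 10375 genes (Benjamini-Hochberg). The mean bead signal was 446 to 640 on 17 arrays, which detected 34.6% to 37.9% of the probes. Castrated knockout array 1 had a mean signal of 244 and detected 27.8%, and this array and knockout female array 1 had the lowest mean correlations with the other arrays of their groups, at 0.957 and 0.970. Ephb6 itself fell in knockout glands, with a mean difference from wild type of -1.14 over the 3 conditions (SE 0.15, limma adjusted p = 0.00481). Its arrays overlapped in intact males, where 1 knockout array stood at 5.86 and 1 wild-type array at 5.73. The labels do not say where the probe lies relative to the deleted part. Adrenal markers were present on every array: all 7 cortex markers tested and all 5 medulla markers tested were detected on 18 arrays, and markers of neighbouring tissues were present in part. Of 9 liver genes, Alb, Fgb and Tat were detected on 0 arrays, Ahsg was detected on 18, Apoa2 on 8, Ttr on 4 and the other 3 on 1 or 2, and of 7 kidney genes 5 were detected on 0 arrays, while Aqp2 was detected on 12 and Slc12a1 on 3. Of 6 fat genes with a probe, Plin1 was detected on 18 arrays, Adipoq on 10, Cidec on 7, Fabp4 and Ucp1 on 1 each and Retn on 0. Adipoq had group means from 4.66 in knockout females to 7.32 in intact wild-type males. The part of fat in the member differences was not tested.

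The role groups differed in how much of them the adrenal arrays detected. Detected were 13 of 16 peroxide-removing genes, 20 of 25 glutathione-conjugating genes, 2 of 3 glutathione-synthesis genes, Nqo1, 3 of 4 epoxide hydrolases, 3 of 6 flavin monooxygenases, 4 of 21 Ugt genes and 4 of 16 Sult genes. None of the 10 Ugt2 genes with a probe was detected on any array, nor were Sult1e1, the estrogen sulfotransferase, or Sult2a1, a hydroxysteroid sulfotransferase. Gclc, the catalytic subunit of glutamate-cysteine ligase, and Txnrd1, the cytosolic thioredoxin reductase, were also detected on 0 arrays by the single probe of each, which bounds what these probes show and not the RNA. Just inside the detection rule stood Nqo1, detected on 5 arrays, and just outside it stood Sult1d1, detected on 2.

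Over the 6 groups, 20 of the 50 detected members (40%) differed in limma's moderated F test, against 18.3% of all genes tested. They were 9 of the 20 conjugating enzymes, 5 of the 13 peroxide-removing enzymes, 3 of the 4 Ugt genes, Ephx1, Fmo1 and Sult4a1. The 30 others had group means that spanned 0.16 in Prdx1 to 0.95 in Gstp2 on the log2 scale. With median scaling in place of quantile normalization, 11 members passed.

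Most differences that passed lay between females or castrated males and intact males, and the fewer between castrated males and females are given further on. In females against intact males, 11 of the 50 members (22%) passed in knockouts, against 10.3% of all genes: 9 (18%) rose, against 5.52% of all genes, and 2 (4%) fell, against 4.77%. In wild-type females 11 (22%) passed, against 10.1% of all genes: 9 (18%) rose, against 5.31%, and 2 (4%) fell, against 4.82%. In castrated against intact knockouts 17 (34%) passed, against 17.5% of all genes: 11 (22%) rose, against 7.45%, and 6 (12%) fell, against 10.1%. In castrated against intact wild types 14 (28%) passed, against 10.7% of all genes: 10 (20%) rose, against 4.61%, and 4 (8%) fell, against 6.1%. The count over the 6 groups and both castrated counts of rises include Ugt1a6a, which met the detection rule only through the castrated groups. The median difference over the 50 members was 0.18 in knockout females and 0.16 in wild-type females, beside -0.03 and -0.02 over all genes. In castrated males it was 0.09 in knockouts and 0.12 in wild types, beside -0.03 in both over all genes. Under median scaling the all-gene median lay elsewhere: in castrated against intact males it was -0.41 in knockouts and -0.16 in wild types. Under it 5 members rose and 8 fell in castrated knockouts, 7 rose and 2 fell in castrated wild types, 5 rose and 0 fell in knockout females, and 4 rose and 0 fell in wild-type females. All 4 comparisons use intact male arrays, and within a genotype the female and the castrated comparison share them. In whole glands, fewer cells of a type and less RNA per cell cannot be told apart.

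Markers of the X-zone moved with the same groups. The mean log2 intensity of Akr1c18, Pik3c2g and Cyp2f2 was 11.92 to 12.35 on castrated knockout arrays, 11.98 to 12.68 on castrated wild-type arrays, 11.998 to 12.91 on knockout female arrays and 11.72 to 12.97 on wild-type female arrays. On intact male arrays it was 5.01 to 5.19 in knockouts and 4.996 to 5.08 in wild types, and Akr1c18 and Pik3c2g were detected on all 12 female and castrated arrays and on 0 of 6 intact male arrays. All 3 X-zone genes rose in each of the 4 comparisons with intact males. Other lists moved too. Of 7 cortex markers, 2 rose in knockout females (median 0.45), and 2 rose and 1 fell in wild-type females (median 0.48). In castrated males 6 of them rose in knockouts (median 0.74) and 3 in wild types (median 0.45). Of 5 endothelial markers, 2 fell in castrated knockouts and 2 in castrated wild types. The part of any of these lists in the differences of the conjugating and other enzymes was not tested.

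**Figure D1:**
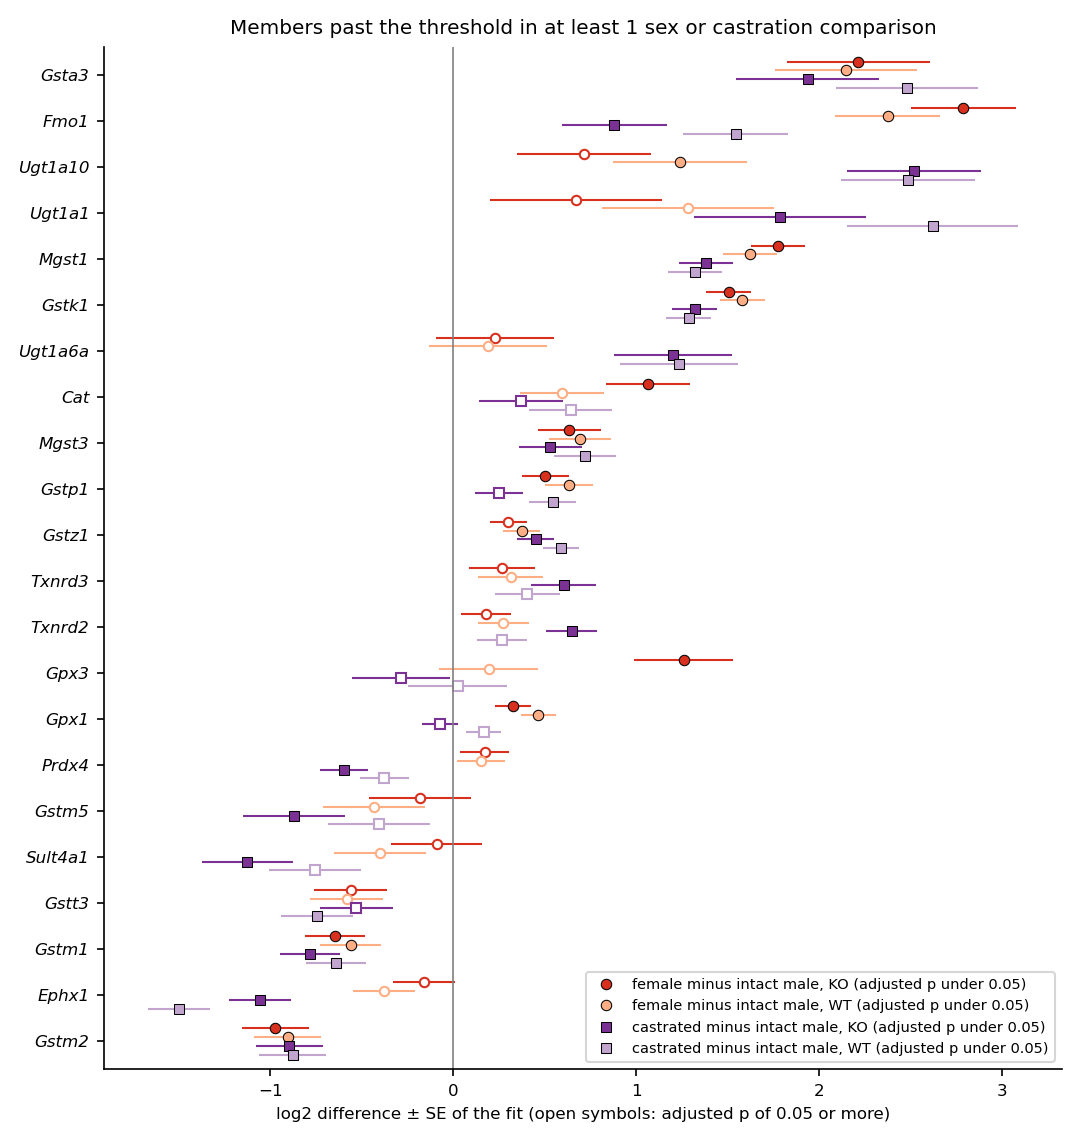
Log2 differences ± SE of the 22 members that passed in at least 1 comparison of females (circles) or castrated males (squares) with intact males, in knockout and wild-type glands; filled symbols passed at an adjusted p under 0.05. Gsta3, Mgst1 and Gstk1 lie right of 0 in all 4 comparisons, Gstm1 and Gstm2 lie left of 0 in all 4, and Ephx1 and the 3 Ugt1a genes are filled mostly in the castrated comparisons.

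Promoters of 4 members are shown because these genes stand for the main patterns: Gsta3 and Mgst1 rose in females and in castrated males, Ugt1a10 rose most in castrated males, and Ephx1 fell in castrated males. Each runs from 250 bases before to 50 bases after the transcription start annotated by RefSeq on mouse build GRCm38.p6, read 5′ to 3′ on the gene's strand. Capitals mark matches on either strand to TGACNNNGC, the core of the antioxidant response element, or to AGAACA, a half-site bound by steroid receptors such as the androgen receptor. The Gsta3 promoter lies at chr1:21240335-21240634 on the plus strand, the Mgst1 promoter at chr6:138140277-138140576 on the plus strand, the Ephx1 promoter at chr1:181017520-181017819 on the minus strand and the Ugt1a10 promoter at chr1:88055161-88055460 on the plus strand.
Gsta3: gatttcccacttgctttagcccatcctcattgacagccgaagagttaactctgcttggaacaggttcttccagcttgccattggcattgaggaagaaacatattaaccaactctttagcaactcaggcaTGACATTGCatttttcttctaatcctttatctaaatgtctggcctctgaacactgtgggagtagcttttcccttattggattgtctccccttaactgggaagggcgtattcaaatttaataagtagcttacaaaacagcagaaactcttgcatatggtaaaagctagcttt
Mgst1: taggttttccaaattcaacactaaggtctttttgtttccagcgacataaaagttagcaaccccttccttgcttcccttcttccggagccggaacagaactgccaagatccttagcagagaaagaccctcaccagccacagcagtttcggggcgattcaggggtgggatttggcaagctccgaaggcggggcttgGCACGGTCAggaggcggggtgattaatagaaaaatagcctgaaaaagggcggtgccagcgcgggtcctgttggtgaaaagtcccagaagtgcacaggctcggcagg
Ephx1: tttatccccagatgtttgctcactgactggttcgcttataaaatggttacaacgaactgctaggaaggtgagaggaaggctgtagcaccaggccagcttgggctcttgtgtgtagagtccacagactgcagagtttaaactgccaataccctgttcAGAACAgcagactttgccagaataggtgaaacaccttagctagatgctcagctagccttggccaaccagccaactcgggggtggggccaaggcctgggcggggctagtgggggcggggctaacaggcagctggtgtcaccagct
Ugt1a10: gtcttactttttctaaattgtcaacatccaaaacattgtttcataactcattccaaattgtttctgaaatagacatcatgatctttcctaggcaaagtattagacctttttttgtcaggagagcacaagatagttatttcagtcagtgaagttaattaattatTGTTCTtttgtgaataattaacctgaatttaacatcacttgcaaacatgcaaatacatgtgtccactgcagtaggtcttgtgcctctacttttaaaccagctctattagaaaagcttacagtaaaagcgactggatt
In these windows Gsta3 and Mgst1 each hold 1 match to TGACNNNGC, and Ephx1 and Ugt1a10 each hold 1 match to AGAACA. Where the table gives several starts for a gene, the first window with a match is shown.

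Of the detected members, 45 had a promoter in that RefSeq table, and a gene counts as holding a motif if the window of any of its starts does. TGACNNNGC occurred in 6 of the 45 (13.3%: Gclm, Gsta3, Gstm5, Gstm7, Mgst1 and Prdx1), and in 14% of the 27025 genes of the table. Among the 22 members that passed in a comparison with intact males, 20 had a promoter and 3 of these held it (15%). AGAACA occurred in 13 of the 45 (28.9%), in 8 of the 20 that passed (40%) and in 21.3% of all genes of that table. Gclm and Mgst1 are on both lists. A match is a stretch of letters, and binding was not measured.

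The glutathione-conjugating enzymes are the largest role group among the detected members. In knockout females 5 of 20 rose and 2 fell, against 5.52% and 4.77% of all genes, and in wild-type females 6 rose and 2 fell, against 5.31% and 4.82%. In castrated knockouts 5 rose and 3 fell, against 7.45% and 10.1% of all genes, and in castrated wild types 6 rose and 3 fell, against 4.61% and 6.1%. Mgst1, Gstk1, Gsta3 and Mgst3 rose in all 4 comparisons, and Gstm1 and Gstm2, both of the mu class, fell in all 4.

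Mgst1 encodes a microsomal glutathione transferase that also reduces lipid hydroperoxides. Its log2 intensity was 13.86, 13.82 and 13.79 in castrated knockouts, 14.17, 13.71 and 13.98 in castrated wild types, 14.49, 14.04 and 14.11 in knockout females and 14.17, 14.32 and 14.27 in wild-type females. It was 12.24, 12.37 and 12.72 in intact knockout males and 12.90, 12.42 and 12.58 in intact wild-type males. Every female and castrated array stood above every intact male array. The difference of females from intact males was 1.77 in knockouts (SE 0.15, limma adjusted p = 2.672e-07) and 1.62 in wild types (SE 0.15, limma adjusted p = 6.854e-07), or 3.41-fold and 3.07-fold. The difference of castrated from intact males was 1.38 in knockouts (SE 0.15, limma adjusted p = 5.947e-06) and 1.32 in wild types (SE 0.15, limma adjusted p = 1.011e-05), or 2.60-fold and 2.50-fold.

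Gstk1, the kappa-class transferase of mitochondria and peroxisomes, had the smallest SE among the 4 that rose throughout. Its values were 13.71, 13.70 and 13.47 in castrated knockouts, 13.85, 13.52 and 13.62 in castrated wild types, 13.74, 13.79 and 13.91 in knockout females and 13.86, 13.97 and 14.02 in wild-type females. In intact males they were 12.09, 12.47 and 12.37 in knockouts and 12.62, 12.28 and 12.22 in wild types, with no overlap between these and any female or castrated array. The difference of females was 1.504 in knockouts (SE 0.12, limma adjusted p = 2.195e-07) and 1.58 in wild types (SE 0.12, limma adjusted p = 9.347e-08). That of castrated males was 1.32 in knockouts (SE 0.12, limma adjusted p = 1.096e-06) and 1.29 in wild types (SE 0.12, limma adjusted p = 1.481e-06).

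Gsta3 is an alpha-class transferase whose human counterpart isomerizes a steroid intermediate on the way to progesterone and testosterone. It had the widest spread within groups of these 4 genes. Its values were 10.88, 11.26 and 10.57 in castrated knockouts, 11.79, 11.21 and 11.39 in castrated wild types, 12.04, 10.81 and 10.69 in knockout females and 10.69, 12.26 and 10.43 in wild-type females. In intact males they were 8.54, 8.96 and 9.40 in knockouts and 9.18, 8.98 and 8.797 in wild types. A single array lay above its 2 companions in each female genotype, and the lowest female or castrated array still exceeded the highest intact male array. The difference of females was 2.21 in knockouts (SE 0.39, limma adjusted p = 9.066e-04) and 2.14 in wild types (SE 0.39, limma adjusted p = 0.00119), or 4.64-fold and 4.42-fold. That of castrated males was 1.94 in knockouts (SE 0.39, limma adjusted p = 0.00253) and 2.48 in wild types (SE 0.39, limma adjusted p = 3.693e-04). A second, dimmer Gsta3 probe had differences of 0.34 in knockout females, 0.71 in wild-type females, 0.61 in castrated knockouts and 1.06 in castrated wild types, none of which passed.

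Mgst3, which also has peroxidase activity, Gstp1 of the pi class and Gstz1, the maleylacetoacetate isomerase of tyrosine breakdown, had smaller differences. Mgst3 rose by 0.63 in knockout females (SE 0.17, limma adjusted p = 0.0222), 0.69 in wild-type females (SE 0.17, limma adjusted p = 0.0126), 0.53 in castrated knockouts (SE 0.17, limma adjusted p = 0.0393) and 0.72 in castrated wild types (SE 0.17, limma adjusted p = 0.0104). In castrated knockouts Mgst3 overlapped with intact males, through castrated knockout array 1 at 12.35. Gstp1 rose by 0.50 in knockout females, 0.63 in wild-type females and 0.54 in castrated wild types (limma adjusted p = 0.0167, 0.00325 and 0.0110), and its difference was 0.25 in castrated knockouts (limma adjusted p = 0.2002). Gstz1 rose by 0.37 in wild-type females, 0.45 in castrated knockouts and 0.59 in castrated wild types (limma adjusted p = 0.0203, 0.00466 and 7.262e-04), and its difference was 0.30 in knockout females (limma adjusted p = 0.0617). A second Gstp1 probe had differences of 0.41 in knockout females, 0.46 in wild-type females and 0.31 in castrated wild types and did not pass, and averaging both probes ended the call in castrated wild types (0.42, limma adjusted p = 0.0567). Median scaling ended every call of these 3 genes. Under it Mgst3 had differences of 0.77 in knockout females, 0.67 in wild-type females, 0.27 in castrated knockouts and 0.70 in castrated wild types, Gstp1 had 0.63 in knockout females, 0.601 in wild-type females and 0.49 in castrated wild types, and Gstz1 had 0.32 in wild-type females, 0.13 in castrated knockouts and 0.51 in castrated wild types. Single arrays ended several of these calls. In wild-type females Mgst3 lost its call without intact male array 3 (0.65) or female array 3 (0.66), and Gstz1 without intact male array 3 (0.29), female array 2 (0.37) or female array 3 (0.33). In knockout females Mgst3 lost its call without intact male arrays 1 (0.57) or 2 (0.60) or female arrays 2 (0.63) or 3 (0.46), and Gstp1 without intact male arrays 1 (0.48) or 2 (0.50) or female array 1 (0.35). In castrated knockouts Mgst3 lost it without intact male arrays 1 (0.47) or 2 (0.50) or castrated arrays 2 (0.44) or 3 (0.39), and in castrated wild types Gstp1 lost it without intact male array 2 (0.48) or castrated array 2 (0.47).

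Gstm2 and Gstm1, mu-class transferases whose genes neighbour each other on chromosome 3, ran the other way. Gstm2 stood at 13.23, 12.98 and 12.90 in castrated knockouts, 12.48, 13.38 and 13.02 in castrated wild types, 12.85, 13.22 and 12.80 in knockout females and 13.05, 12.86 and 12.89 in wild-type females. It stood at 14.01, 14.05 and 13.73 in intact knockout males and at 13.53, 13.93 and 14.04 in intact wild-type males, above every female and castrated array. The difference of females was -0.97 in knockouts (SE 0.18, limma adjusted p = 0.00176) and -0.90 in wild types (SE 0.18, limma adjusted p = 0.00303). That of castrated males was -0.90 in knockouts (SE 0.18, limma adjusted p = 0.00285) and -0.88 in wild types (SE 0.18, limma adjusted p = 0.00429). Gstm1 fell by 0.65 in knockout females, 0.56 in wild-type females, 0.78 in castrated knockouts and 0.64 in castrated wild types (limma adjusted p = 0.0159, 0.0364, 0.00345 and 0.0179). This rests on the brighter of its detected probes: the dimmer one had differences of 0.77, 0.25, 0.14 and 0.23 in the same order, none of which passed. Averaged over both probes, Gstm1 had a difference of 0.06 in knockout females and passed in none of the 4. Median scaling ended the Gstm2 calls in knockout (-0.83) and wild-type (-0.91) females, and the Gstm1 calls in knockout females (-0.56), wild-type females (-0.58) and castrated wild types (-0.67). Mu-class genes are alike in sequence, and whether a probe tells them apart was not tested.

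Of the other mu-class genes, Gstm5 fell by 0.87 in castrated knockouts (SE 0.28, limma adjusted p = 0.0375) and had a difference of -0.41 in castrated wild types (limma adjusted p = 0.410). The Gstm5 call was lost without intact knockout male arrays 1 (-0.96), 2 (-0.80) or 3 (-0.85) and without castrated knockout array 1 (-0.56). No detection filter and no intensity trend ended it too (limma adjusted p = 0.0557 and 0.0553). Gstm4, Gstm6 and Gstm7 did not pass in any comparison. The theta-class gene Gstt3 fell by 0.74 in castrated wild types (SE 0.20, limma adjusted p = 0.0213), with 1 castrated array at 8.83 and 1 intact male array at 8.82. The Gstt3 call was lost without intact wild-type male arrays 2 (-0.60) or 3 (-0.66) and without castrated wild-type arrays 1 (-0.63) or 3 (-0.72), and with median scaling (-0.92). Its differences in castrated knockouts, knockout females and wild-type females were -0.53, -0.56 and -0.58 (limma adjusted p = 0.0757, 0.0824 and 0.0740). The Gstm1 call was lost in wild-type females without intact male arrays 2 (-0.48) or 3 (-0.47) or female arrays 1 (-0.56), 2 (-0.58) or 3 (-0.54), and in knockout females without intact male arrays 1 (-0.63) or 3 (-0.58) or female array 2 (-0.52). In castrated wild types it was lost without intact male arrays 2 (-0.56) or 3 (-0.55) or castrated arrays 1 (-0.56) or 3 (-0.59).

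The remaining conjugating enzymes did not pass. Gsta4, Gsto1, Gsto2, Gstp2, Gstt1, Gstt2, Mgst2, Gstm4, Gstm6 and Gstm7 passed in none of the comparisons with intact males. Gsto1, an omega-class enzyme that reduces rather than conjugates, had group means between 10.74 in castrated knockouts and 11.39 in wild-type females. Gstt1 came nearest in castrated knockouts, with a difference of -0.61 from intact males (SE 0.21, limma adjusted p = 0.0515).

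**Figure D2:**
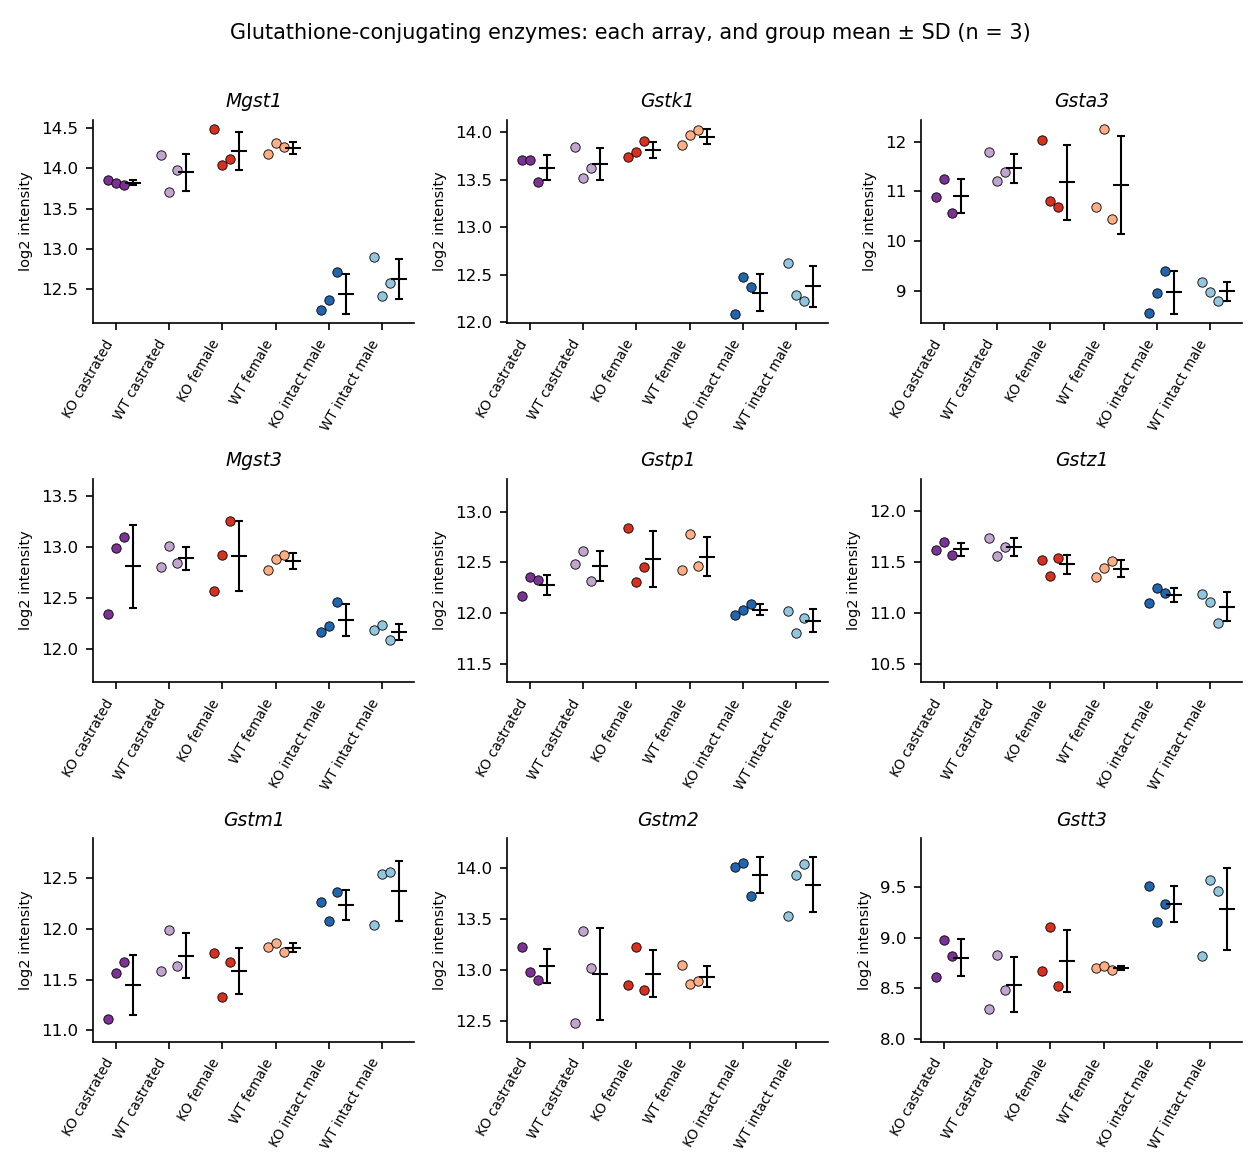
Log2 intensity of 9 glutathione-conjugating enzymes on each array (points), with group mean ± SD (n = 3 arrays), castrated males at the left, then females, then intact males, knockout left of wild type. Mgst1, Gstk1 and Gsta3 are higher on every castrated and female array than on any intact male array, and Gstm2 is lower on every one.

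Among the glucuronidating enzymes the difference lay mainly in castrated males, and 3 of the 4 detected Ugt genes rose there in both genotypes. Of these, Ugt1a6a met the detection rule only through the castrated groups. All 3 belong to the Ugt1a cluster on chromosome 1, where 8 members with a probe lie within 200 kb of the next. Mouse Ugt1a transcripts share their last exons, so probes in those exons cannot tell them apart.

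Ugt1a10 was detected on all 18 arrays. Its log2 intensity was 11.57, 11.73 and 10.99 in castrated knockouts and 11.84, 11.20 and 11.61 in castrated wild types. It was 9.50, 9.58 and 9.80 in knockout females, 10.38, 10.41 and 10.13 in wild-type females, 8.82, 9.52 and 8.401 in intact knockout males and 7.86, 9.77 and 9.58 in intact wild-type males. Every castrated array exceeded every female and intact male array, while knockout females and intact knockout males lay close together. The difference of castrated from intact males was 2.52 in knockouts (SE 0.37, limma adjusted p = 1.589e-04) and 2.48 in wild types (SE 0.37, limma adjusted p = 2.161e-04), or 5.73-fold and 5.59-fold. Females differed from intact males by 0.72 in knockouts (SE 0.37, limma adjusted p = 0.256) and by 1.24 in wild types (SE 0.37, limma adjusted p = 0.0367). The wild-type female call was lost without intact male array 1, which stood at 7.86 (0.64), and without female arrays 1 (1.20), 2 (1.19) or 3 (1.33), and with median scaling (1.16). Castrated differed from female glands by 1.80 in knockouts (SE 0.37, limma adjusted p = 0.0173), a call lost without knockout female array 1 (1.74) or castrated arrays 1 (1.73) or 2 (1.65), and by 1.24 in wild types (SE 0.37, limma adjusted p = 0.198). The other 2 detected Ugt1a10 probes rose by 2.48 and 2.19 in castrated knockouts and by 2.55 and 2.56 in castrated wild types.

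Ugt1a1, the bilirubin-conjugating enzyme, and Ugt1a6a, which conjugates small phenols, were dim. Ugt1a1 was detected on 2 of 3 castrated knockout and on 3 of 3 castrated wild-type arrays, against 0 of 6 intact male arrays. Its values were 4.71, 7.25 and 6.54 in castrated knockouts and 7.59, 6.82 and 6.54 in castrated wild types, while all intact males stood between 4.33 and 4.42. Set against the lowest signal of detected probes on the intact male arrays, where that was higher than the gene's own value, Ugt1a1 was at least 1.66-fold higher in castrated knockouts (limma adjusted p = 0.0139) and at least 2.77-fold higher in castrated wild types (limma adjusted p = 0.00120). Ugt1a6a stood at 7.15, 6.03 and 5.80 in castrated knockouts and 6.70, 5.88 and 6.85 in castrated wild types, was detected on all of these, and was detected on 0 of 6 intact male arrays. It was at least 1.86-fold higher in castrated knockouts (limma adjusted p = 0.0159) and at least 1.95-fold higher in castrated wild types (limma adjusted p = 0.0190). A second Ugt1a6a probe had differences of 0.08 and -0.26 there and did not pass. The value of 7.15 came from castrated knockout array 1, where the lowest signal of detected probes was 6.498. On the other arrays that lowest signal was 5.36 to 5.66. Ugt1a6a was detected on all 3 arrays of each castrated group and on 1 other array, of a wild-type female. Only the castrated groups thus brought it past the detection rule. Its presence among the detected members, and its place in each count of rises, already lean on this difference. Ugt1a1 was also detected on 1 knockout and 2 wild-type female arrays, which meet the rule without the castrated groups. The Ugt1a1 call in knockouts was lost without castrated array 2 (1.24) or 3 (1.60). The Ugt1a6a call was lost in knockouts without intact male array 3 (0.96) or castrated array 1 (0.79) and with median scaling (0.75), and in wild types without intact male arrays 1 (1.16) or 3 (1.24) or castrated arrays 1 (1.12) or 3 (1.05). Averaging its detected probes ended the call in both genotypes, at 0.64 in knockouts and 0.49 in wild types (limma adjusted p = 0.0724 and 0.221). Liver markers were highest in the castrated wild types: the mean log2 intensity of the 3 liver genes tested was 5.70 to 7.21 on castrated knockout arrays, 6.33 to 8.42 on castrated wild-type arrays, 5.78 to 6.38 on intact knockout male arrays and 5.79 to 6.29 on intact wild-type male arrays, and 0 of the 3 passed in either genotype. Of the 2 kidney genes tested, 1 rose in castrated knockouts and 0 in castrated wild types. Their mean log2 intensity was 5.44 to 6.46 on castrated knockout and 5.18 to 5.28 on intact knockout male arrays. In wild types it was 5.49 to 5.77 on castrated and 5.27 to 5.77 on intact male arrays. The part of liver or kidney genes in the Ugt1a differences was not tested. In females, where Ugt1a1 was detected on 1 of 3 knockout and 2 of 3 wild-type arrays, it did not pass (limma adjusted p = 0.441 and 0.0979). Ugt3a1, the fourth Ugt gene detected, passed in no comparison and was detected on 7 arrays.

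Ephx1, the microsomal epoxide hydrolase, was the member that fell most in castrated wild types. It stood at 11.96, 12.44 and 12.39 in castrated knockouts and at 12.26, 11.88 and 11.71 in castrated wild types. It stood at 12.85, 13.39 and 13.25 in knockout females, 12.96, 12.88 and 13.38 in wild-type females, 13.42, 13.21 and 13.32 in intact knockout males and 13.28, 13.56 and 13.51 in intact wild-type males. The castrated arrays lay below all others, while females overlapped with intact males. Castrated males differed from intact males by -1.06 in knockouts (SE 0.17, limma adjusted p = 4.186e-04) and by -1.4998 in wild types (SE 0.17, limma adjusted p = 1.218e-05), which is 2.08-fold and 2.83-fold lower. They differed from females by -0.90 in knockouts (SE 0.17, limma adjusted p = 0.0112) and by -1.12 in wild types (SE 0.17, limma adjusted p = 0.00570). Against females, 1.53% of all genes were called in knockouts and 0.328% in wild types, and Ephx1 was the only member called there in both. The wild-type call against females was lost without castrated wild-type array 3 (-1.0004) and with median scaling (-1.16, limma adjusted p = 0.295). Females differed from intact males by -0.16 in knockouts and -0.38 in wild types and did not pass (limma adjusted p = 0.646 and 0.193). Ephx2, the soluble epoxide hydrolase of lipid epoxides, and Ephx4 passed in no comparison.

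Fmo1, a flavin monooxygenase that oxidizes nitrogen and sulfur in drugs and amines, had its highest values in females. It stood at 9.43, 9.42 and 8.84 in castrated knockouts, 9.97, 9.48 and 10.08 in castrated wild types, 11.42, 11.34 and 10.65 in knockout females and 11.03, 9.89 and 11.11 in wild-type females. Intact males stood at 8.76, 8.06 and 8.23 in knockouts and 8.32, 8.39 and 8.20 in wild types, below every female and castrated array. Females differed from intact males by 2.79 in knockouts (SE 0.29, limma adjusted p = 2.959e-06) and by 2.37 in wild types (SE 0.29, limma adjusted p = 1.960e-05), or 6.90-fold and 5.18-fold. Castrated males differed from intact males by 0.88 in knockouts (SE 0.29, limma adjusted p = 0.0417) and by 1.54 in wild types (SE 0.29, limma adjusted p = 0.00168). The knockout value fell to 0.39 with median scaling and did not pass, and its call was also lost without intact male arrays 2 (0.73) or 3 (0.82) or castrated arrays 1 (0.78) or 2 (0.78). The authors' normalized table (0.66) and no background correction (0.69) ended it too (limma adjusted p = 0.0729 and 0.0739). So did no detection filter and no intensity trend (limma adjusted p = 0.0619 and 0.0606). Against females, castrated males stood lower by -1.91 in knockouts (SE 0.29, limma adjusted p = 0.00263) and by -0.83 in wild types (SE 0.29, limma adjusted p = 0.300). Whether these last differences of the genotypes differ from each other was not tested. Fmo2 and Fmo5 passed in no comparison.

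Of the sulfotransferases, Sult4a1, a brain-enriched member of the family, was the only one to pass. It stood at 8.52, 8.01 and 7.48 in castrated knockouts, 8.42, 8.09 and 8.19 in castrated wild types, 9.67, 8.86 and 8.59 in knockout females, 8.75, 8.44 and 8.59 in wild-type females, 8.92, 9.29 and 9.18 in intact knockout males and 8.92, 8.88 and 9.17 in intact wild-type males. The castrated arrays of both genotypes lay below all intact male arrays. Castrated knockouts differed from intact knockout males by -1.12 (SE 0.25, limma adjusted p = 0.00490) and from knockout females by -1.03 (SE 0.25, limma adjusted p = 0.0436), while castrated wild types differed from intact wild-type males by -0.75 (SE 0.25, limma adjusted p = 0.0620). The call against knockout females was lost without female arrays 1 (-0.72) or 2 (-1.12) or castrated arrays 2 (-1.04) or 3 (-0.77). The authors' normalized table (-0.74) and no background correction (-0.77) also ended that call (limma adjusted p = 0.0502 and 0.0527). So did no detection filter and no intensity trend (limma adjusted p = 0.0631 and 0.0671). Medulla markers moved in the same groups: 4 of 5 fell in castrated against intact knockouts 2 of 5 in castrated against intact wild types, and 4 of 5 in castrated against female knockouts (median -0.81), and their mean log2 intensity was 12.45 to 12.79 in castrated knockouts, 13.05 to 13.16 in castrated wild types, 13.33 to 14.10 in knockout females, 13.23 to 13.59 in wild-type females, 13.36 to 13.66 in intact knockout males and 13.12 to 13.85 in intact wild-type males. Their part in the Sult4a1 difference was not tested. Sult1a1, the main phenol sulfotransferase, had group means between 9.93 in castrated wild types and 9.38 in intact wild-type males, and Sult2b1, which sulfates cholesterol, had group means between 5.83 in wild-type females and 6.62 in intact knockout males.

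**Figure D3:**
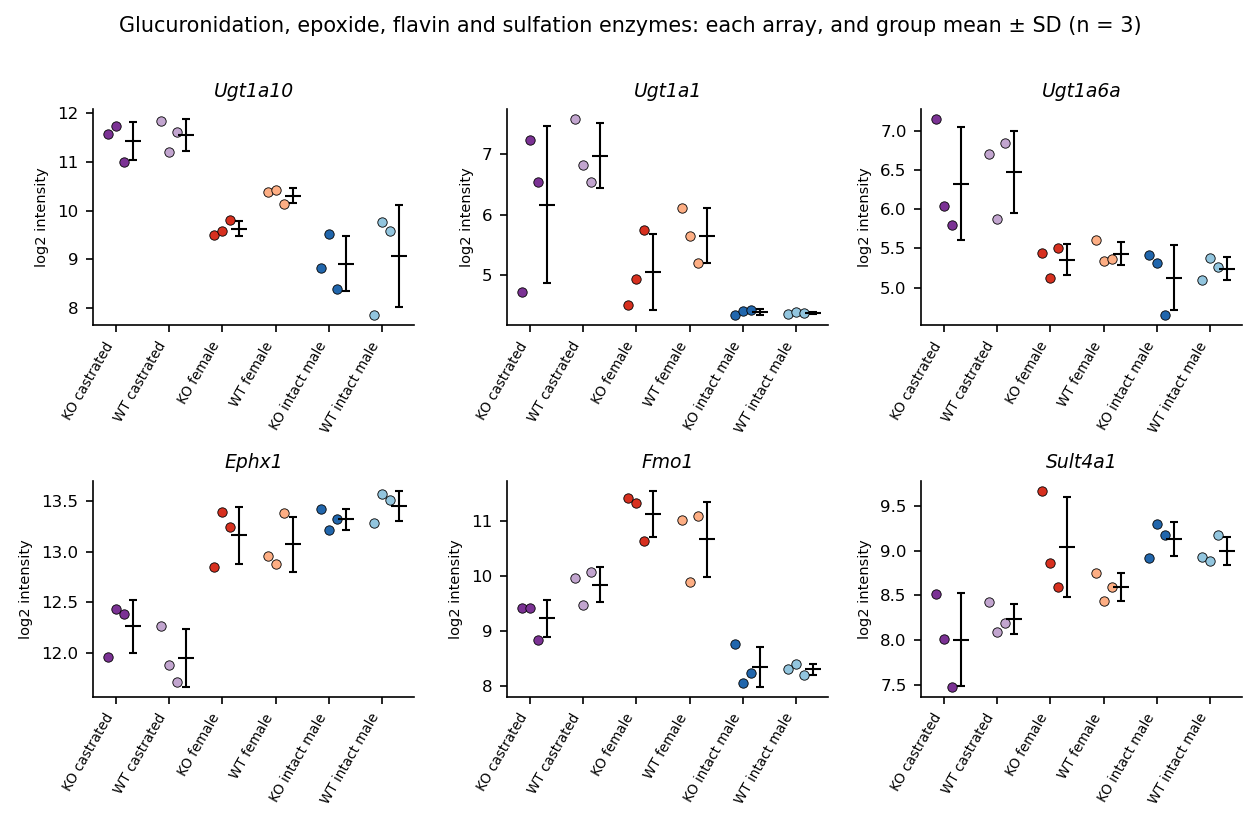
Log2 intensity of 3 Ugt1a genes, Ephx1, Fmo1 and Sult4a1 on each array (points), with group mean ± SD (n = 3 arrays), castrated males at the left, then females, then intact males, knockout left of wild type. Ugt1a10 is highest and Ephx1 lowest in castrated males, and Ugt1a1 sits flat at the floor in intact males. Fmo1 has its highest group means in females, and its wild-type female and castrated wild-type arrays overlap.

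Of the 13 peroxide-removing enzymes, 3 passed in knockout females, all higher (Gpx1, Gpx3 and Cat), and 1 in wild-type females (Gpx1), against 10.3% and 10.1% of all genes. In castrated against intact males 3 passed in knockouts (Txnrd2 and Txnrd3 higher, Prdx4 lower) and 0 in wild types, against 17.5% and 10.7% of all genes. In castrated against female glands 3 fell in knockouts (Gpx1, Gpx3 and Prdx4) and 0 passed in wild types, against 1.53% and 0.328% of all genes.

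Gpx3, the secreted glutathione peroxidase of plasma, stood out in knockout females. Its log2 intensity was 10.95, 10.32 and 10.46 in castrated knockouts, 11.14, 10.92 and 11.27 in castrated wild types, 12.75, 12.03 and 11.58 in knockout females, 11.13, 11.72 and 10.99 in wild-type females, 11.22, 10.99 and 10.37 in intact knockout males and 10.80, 11.36 and 11.10 in intact wild-type males. The knockout females lay above every array of the other groups except 1 wild-type female array at 11.72, which exceeded the lowest of them. Knockout females differed from intact knockout males by 1.26 (SE 0.27, limma adjusted p = 0.00462), and castrated knockouts differed from knockout females by -1.54 (SE 0.27, limma adjusted p = 0.00708). Both calls were kept in each alternative run. In wild types these differences were 0.19 and -0.17 (limma adjusted p = 0.745 and 0.948). The test of the difference itself, the knockout effect in females minus that in intact males, gave 1.06 (SE 0.38, limma adjusted p = 0.9998), and did not pass.

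Cat, the peroxisomal catalase, stood at 7.55, 8.52 and 8.62 in castrated knockouts, 8.94, 8.88 and 8.91 in castrated wild types, 9.18, 9.04 and 8.56 in knockout females, 8.77, 9.06 and 8.75 in wild-type females, 7.69, 7.78 and 8.11 in intact knockout males and 8.39, 8.23 and 8.18 in intact wild-type males. Females lay above intact males in both genotypes, and castrated knockout array 1 lay below all other arrays. Only the difference of knockout females from intact knockout males passed, at 1.06 (SE 0.23, limma adjusted p = 0.00474), a call lost with median scaling (1.02, limma adjusted p = 0.286), while that of wild types was 0.60 (SE 0.23, limma adjusted p = 0.118). Castrated males differed from intact males by 0.37 in knockouts and 0.64 in wild types (limma adjusted p = 0.291 and 0.0849).

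Gpx1, the cytosolic glutathione peroxidase, rose in females by 0.33 in knockouts (SE 0.10, limma adjusted p = 0.0390) and 0.47 in wild types (SE 0.10, limma adjusted p = 0.00387). The knockout call was lost without any one of its 6 arrays, at values of 0.297 to 0.354. Median scaling ended both calls, at 0.43 in knockouts and 0.44 in wild types. Castrated against female glands differed by -0.40 in knockouts (SE 0.10, limma adjusted p = 0.0455), a call lost without knockout female arrays 1 (-0.38), 2 (-0.41) or 3 (-0.40) or castrated arrays 1 (-0.37) or 3 (-0.36) and with median scaling (-0.71), and by -0.30 in wild types (limma adjusted p = 0.257). Prdx4, the peroxiredoxin of the endoplasmic reticulum, had its lowest values in castrated males. It stood at 10.76, 10.80 and 10.66 in castrated knockouts, against 11.84, 11.36 and 11.33 in knockout females and 11.53, 11.18 and 11.30 in intact knockout males. It stood at 10.91, 11.03 and 10.79 in castrated wild types, against 11.30, 11.58 and 11.44 in wild-type females and 11.23, 11.31 and 11.32 in intact wild-type males. The castrated arrays lay below all others in both genotypes. Castrated knockouts differed by -0.60 from intact males (SE 0.13, limma adjusted p = 0.00473) and by -0.77 from females (SE 0.13, limma adjusted p = 0.00708), and castrated wild types by -0.38 and -0.53 (limma adjusted p = 0.0788 and 0.111).

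Txnrd2, the mitochondrial thioredoxin reductase, and Txnrd3 rose in castrated knockouts by 0.65 (SE 0.14, limma adjusted p = 0.00365) and 0.60 (SE 0.18, limma adjusted p = 0.0259). With median scaling these were 0.30 and 0.09, and neither passed. The Txnrd3 call was also lost without intact knockout male arrays 1 (0.61), 2 (0.56) or 3 (0.64) or castrated knockout array 3 (0.52). A second, dimmer Txnrd2 probe had differences of 0.95 in knockout females, 0.99 in wild-type females, 0.93 in castrated knockouts and 0.71 in castrated wild types, and it passed in all 4 (limma adjusted p = 0.00383, 0.00290, 0.00396 and 0.0291 over all detected probes). Prdx1, Prdx2, Prdx3, Gpx2, Gpx4, Gpx7 and Gpx8 passed in no comparison. Gpx4, which reduces lipid hydroperoxides in membranes, had group means between 13.98 in castrated knockouts and 13.78 in intact wild-type males. Prdx2, a cytosolic peroxiredoxin, had group means between 14.20 in knockout females and 13.98 in intact knockout males, and Prdx3, the mitochondrial one, had means between 12.36 in castrated knockouts and 12.87 in castrated wild types.

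**Figure D4:**
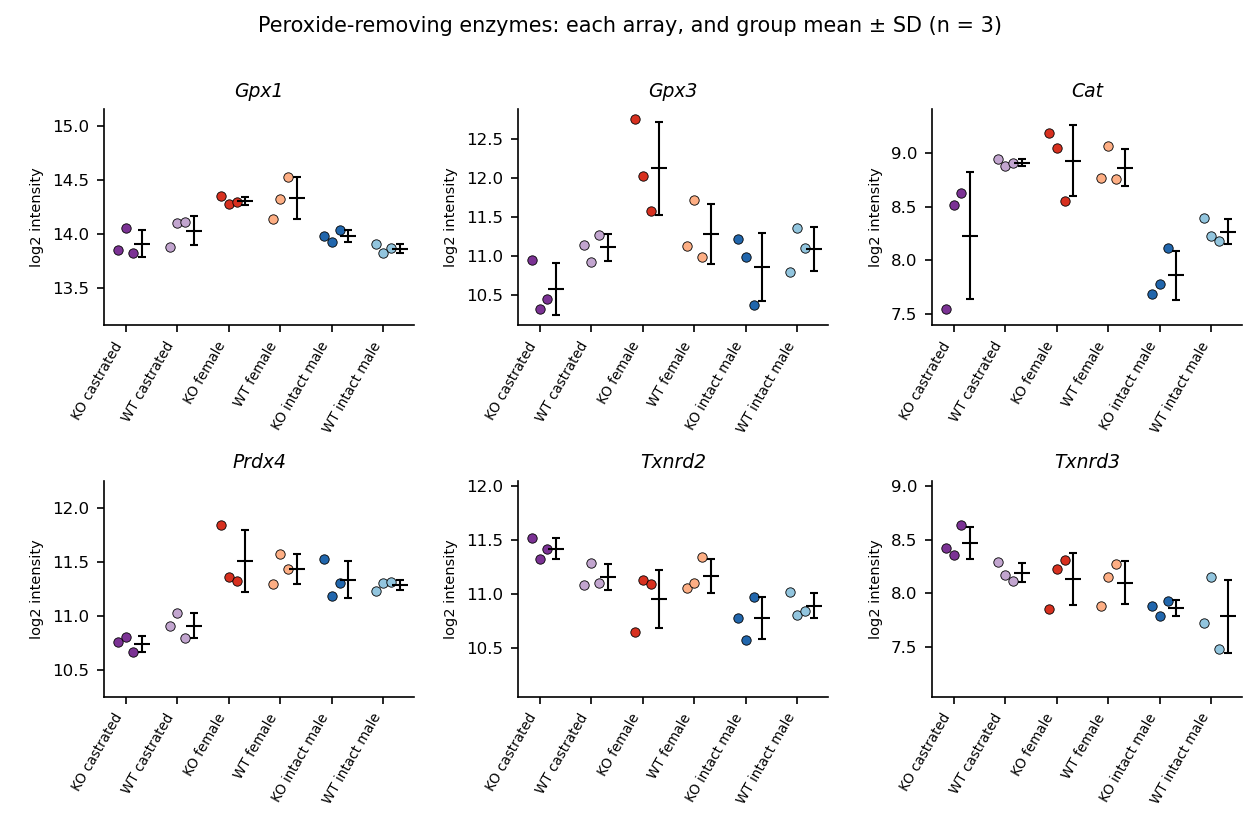
Log2 intensity of 6 peroxide-removing enzymes on each array (points), with group mean ± SD (n = 3 arrays), castrated males at the left, then females, then intact males, knockout left of wild type. Gpx3 is highest in knockout females, Prdx4 lowest in castrated males, and castrated knockout array 1 is the low point of Cat at 7.55.

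Of the members of glutathione synthesis and quinone reduction, only Gclm, Gss and Nqo1 were detected, and none of them passed in any comparison. Gclm, the modifier subunit of glutamate-cysteine ligase, averaged 9.13 ± 0.19 in castrated knockouts, 9.35 ± 0.05 in castrated wild types, 9.16 ± 0.11 in knockout females, 9.16 ± 0.24 in wild-type females, 9.04 ± 0.28 in intact knockout males and 9.26 ± 0.21 in intact wild-type males (SD, n = 3 each). Gss, the glutathione synthetase, averaged 9.12 ± 0.22, 8.96 ± 0.14, 9.02 ± 0.19, 9.05 ± 0.20, 8.82 ± 0.05 and 8.64 ± 0.80 in the same order, with 1 intact wild-type male array at 9.54. The largest of the 8 differences of Gclm and Gss from intact males was 0.41, of Gss in wild-type females (SE 0.26, limma adjusted p = 0.396). Nqo1, the quinone reductase often used as a readout of the antioxidant response, was near the floor, with group means of 5.02 to 5.54.

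No member passed between knockout and wild-type glands. The count of members passing was 0 in castrated males, 0 in females, 0 in intact males and 0 in the mean of the 3 conditions, where 0%, 0%, 0% and 0.00964% of all genes were called. At an unadjusted p under 0.05 in the limma fit, 4, 1, 0 and 3 members stood out, among 651, 291, 275 and 397 genes. The smallest p-values belonged to Cat in castrated males (-0.68, SE 0.23, limma adjusted p = 0.751), Gpx3 in females (0.84, SE 0.27, limma adjusted p = 1), Cat in intact males (-0.41, SE 0.23, limma adjusted p = 0.9997) and Cat in the mean (-0.34, SE 0.13, limma adjusted p = 0.979). Without castrated knockout array 1 the Cat difference in castrated males was -0.34, and without knockout female array 1 the Gpx3 difference in females was 0.52. The knockout effect in females minus that in intact males, and the one in castrated minus that in intact males, also called 0 members, with 0% of all genes called and 1 member each at an unadjusted p under 0.05, Gpx3 and Sult1a1. Sult1a1 had a value of -0.62 (SE 0.27, limma adjusted p = 0.966) there. The median SE of a difference between 2 groups was 0.215 over the members, and 3 arrays a group limit the precision.

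The sex and castration differences can be set side by side in the genotypes, which share no arrays in these comparisons. In females 9 members passed in both knockouts and wild types, 81.8% of the members called in each, and all 9 had the same sign: Fmo1, Gpx1, Gsta3, Gstk1, Gstp1, Mgst1 and Mgst3 rose, and Gstm1 and Gstm2 fell. In castrated males 12 passed in both, 70.6% of those called in knockouts and 85.7% of those called in wild types: Fmo1, Gsta3, Gstk1, Gstz1, Mgst1, Mgst3, Ugt1a1, Ugt1a10 and Ugt1a6a rose, and Ephx1, Gstm1 and Gstm2 fell. Ugt1a6a met the detection rule only through the castrated groups. Of all genes called, 719 passed in both genotypes in females, 67.3% of those called in knockouts and 68.4% of those called in wild types, and 774 in castrated males, 42.6% of those called in knockouts and 69.7% of those called in wild types. Over the 50 members, 40 had the same sign in both genotypes in females and 40 in castrated males, beside 7802 and 7721 of the 10375 genes tested. Across members, which are not independent replicates, the differences in knockouts and wild types correlated at r = 0.915 in females and r = 0.910 in castrated males, beside 0.819 and 0.768 over all genes tested.

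**Figure D5:**
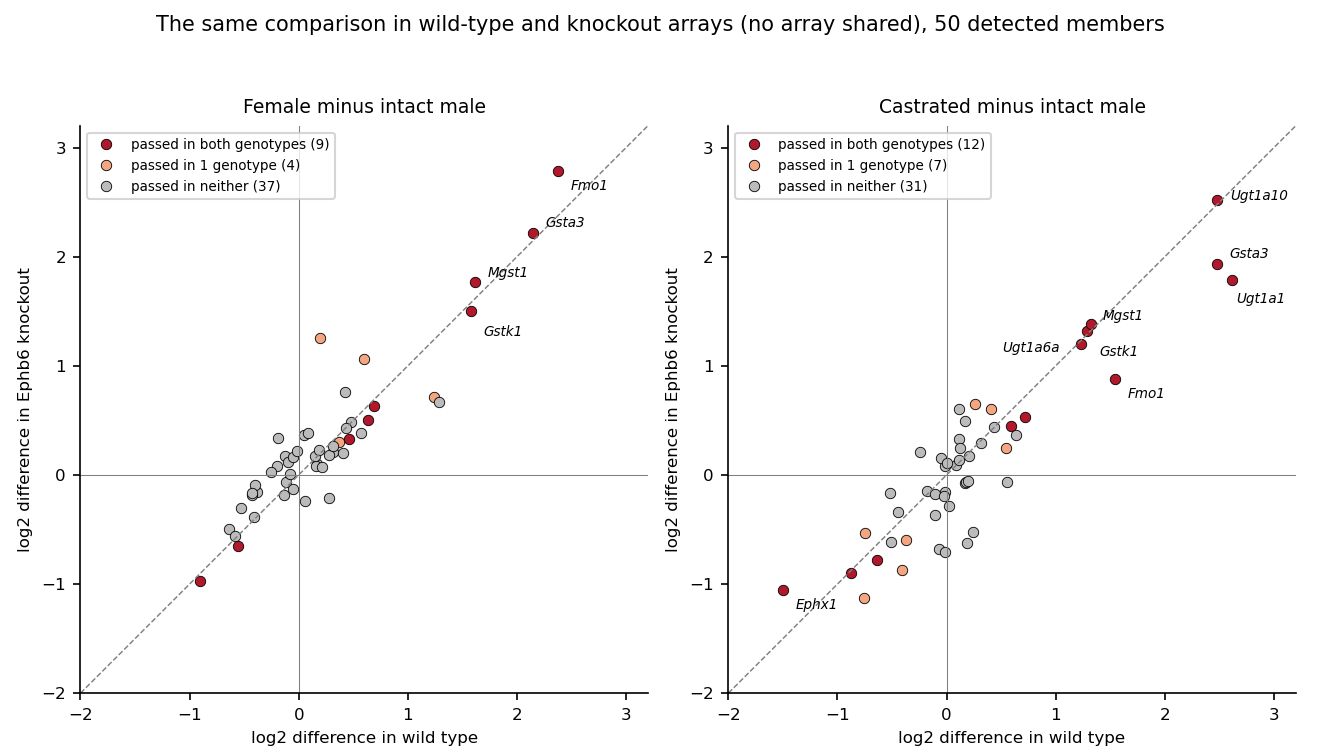
Log2 difference of each of the 50 detected members in wild-type glands (horizontal axis) against that in knockout glands (vertical axis), for females (left) and castrated males (right) against intact males; the dashed line marks equal values. The 9 and 12 members that passed in both genotypes have the same sign in both, and some lie off the line. They run from Ephx1 and Gstm2 at the lower left to Fmo1, Gsta3 and Ugt1a10 at the upper right.

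Castrated against female glands set apart fewer members. In knockouts 7 members (14%) passed, against 1.53% of all genes: 1 (2%) rose, against 0.511%, and 6 (12%) fell, against 1.02%. In wild types 1 (2%) passed, against 0.328% of all genes: 0 rose, against 0.135%, and 1 (2%) fell, against 0.193%. The knockout calls were Ugt1a10, which rose, and Fmo1, Gpx3, Sult4a1, Ephx1, Prdx4 and Gpx1, which fell, and the wild-type call was Ephx1. Without knockout female array 1, 4 members passed in knockouts. The median difference over members was -0.11 in knockouts and 0.02 in wild types, beside 0.00 and -0.01 over all genes. None of the 20 conjugating enzymes passed here in either genotype. Of the 5 medulla markers 4 fell here in knockouts and 0 passed in wild types, and their part in the member differences was not tested.

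Other genes of glutathione and redox metabolism, from a list of 69 with 54 tested, were counted in the same way. In females 5 rose and 3 fell in knockouts, and 7 rose and 1 fell in wild types, against 10.3% and 10.1% of all genes called. In castrated males 7 rose and 6 fell in knockouts, and 6 rose and 3 fell in wild types, against 17.5% and 10.7% of all genes called. In castrated against female knockouts Ggt7 and Glrx fell, against 1.53% of all genes called, and the genotype comparisons gave 0. Hmox1, the inducible heme oxygenase, fell in all 4 comparisons with intact males, with differences of -1.915 in knockout females, -2.95 in wild-type females, -2.11 in castrated knockouts and -2.19 in castrated wild types (limma adjusted p = 1.534e-04, 1.168e-06, 5.601e-05 and 4.591e-05). Nqo2, a quinone reductase related to Nqo1, rose in all 4, by 1.29, 1.13, 1.09 and 0.90 in the same order (limma adjusted p = 8.219e-06, 4.086e-05, 6.082e-05 and 4.945e-04). Chac1, which degrades glutathione, rose by 1.07, 0.84, 1.31 and 1.12 (limma adjusted p = 0.00125, 0.00865, 2.010e-04 and 9.644e-04). Sod2, the mitochondrial superoxide dismutase, rose by 0.47, 0.58, 0.50 and 0.52 (limma adjusted p = 0.00278, 4.204e-04, 0.00162 and 0.00143).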

How the data were processed

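Illumina bead arrays measured whole adrenal RNA, 18 arrays in 6 groups of 3. The authors deposited non-normalized probe intensities with a detection p-value for each probe and array, per the file headers, and a table of normalized intensities made by a method they do not state there. GenomeStudio is named, with no version, in the submitters' processing notes. Of 45281 probes, 34885 had 1 gene symbol in the platform annotation, 18 had several and 10378 had none, and 34807 of the first matched the RefSeq gene table, with 0 symbols changed.

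The deposited intensities were corrected and quantile normalized with neqc in limma 3.58.1 (R 4.3.3; negative-control statistics taken by neqc from detection p-values, offset 16), which gives log2 intensities. Of 18158 probes kept by the detection rule, 15717 had 1 symbol, and the brightest of these on average stood for each gene. Group means were compared with lmFit and eBayes with an intensity trend over all 18 arrays, with 12 residual degrees of freedom. The fit was tested on simulated data. Alternatives were the authors' normalized table, no background correction, median scaling, no filter, detection on all 3 arrays of a group, the mean of a gene's detected probes, array weights, no intensity trend, a replicate block and leaving out each array. Testing every detected probe, and leaving out the pair of arrays that stand apart, were added after seeing the data.

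Values are given for the members with the largest differences past the threshold in each comparison (up to 12 in each direction), the smallest p where none passed, the singly named genes and the brightest probe of each family. Members and lists were chosen with earlier results of these data known.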

Additional observations from a re-analysis of the deposited data

How the results depend on the processing

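The 61 differences past the threshold and 6 others were recomputed under the alternatives, giving 1096 values: 958 kept direction and side of the threshold, 137 kept direction but no longer passed, and 1 reversed, Gstm1 in knockout females against intact males at 0.0597 when its detected probes were averaged. With median scaling the count of members passing was 5 in knockout and 4 in wild-type females against intact males, 9 in castrated against intact wild types, 0 in castrated against female wild types and 11 in the test over the 6 groups. With array weights it was 17 in knockout females, 20 in wild-type females and 6 in castrated against female wild types, and without the 2 arrays that stand apart it was 3 in that last comparison. Leaving out 1 array gave 7 to 12 members in knockout females (7 without intact knockout male array 1) and 7 to 14 in wild-type females (7 without wild-type female array 3). It gave 13 to 19 in castrated against intact knockouts, 11 to 16 in castrated against intact wild types, 4 to 7 in castrated against female knockouts (4 without knockout female array 1), 0 to 2 in castrated against female wild types (0 without castrated wild-type array 3) and 19 to 22 over the 6 groups. Of the single differences, 26 no longer passed with median scaling, 8 without the filter and 8 without the intensity trend. These last settings ended the same calls. Against intact males they were Gstm1 and Ugt1a10 in wild-type females, Gpx1 in knockout females, and Fmo1, Gstm5 and Mgst3 in castrated knockouts. In castrated against female knockouts they were Gpx1 and Sult4a1. The authors' normalized table and no background correction each ended 2. The cause of these shifts was not tested. The genotype comparisons and both interaction tests called 0 members in each of 29 alternatives.

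Arrays with the same replicate number did not deviate together: their residuals correlated at a median of 0.0033 over 45 pairs (-0.232 to 0.233), so the numbers were not taken as pairs. With the replicate block 11 members passed in knockout and 11 in wild-type females, 17 in castrated against intact knockouts, 14 in castrated against intact wild types, 6 in castrated against female knockouts, 1 in castrated against female wild types and 20 over the 6 groups. The block ended the calls of Gstm5 in castrated against intact knockouts (limma adjusted p = 0.0511) and Gpx1 in castrated against female knockouts (limma adjusted p = 0.0539).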
